A study of Taeniopygia guttata with 22 samples.

Results

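The cell death and axon degeneration genes described here are SARM1, APAF1, PAWR, CASP8, BCL2, BCL2L1 and XIAP. They were chosen by name, as genes that carry out or hold back the death of neurons and their axons. Earlier results of these data were known when they were chosen. The genes were matched to the count table by NCBI gene ID. A row was found for 6 of the 7, which are 6 of the 21786 genes with an ID, and all 6 were among the 16004 genes that passed the filter on low counts and were tested. CASP8 was not matched by symbol and was not analysed here. The gene IDs are 100217549 for SARM1, 100222477 for APAF1, 100223794 for PAWR, 100224888 for BCL2, 100224900 for BCL2L1 and 100231359 for XIAP, and none of the 6 lies on the Z sex chromosome.

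The tissue is RA, the robust nucleus of the arcopallium, the forebrain nucleus that drives the vocal motor neurons of songbirds. In zebra finches males learn and produce song and females do not. The 22 RNA-seq libraries fall into 4 groups, with 5 males at 50 days posthatch, 7 females at 50 days, 5 males at 20 days and 5 females at 20 days. Each library is of RA cut by laser from stained frozen sections and amplified from 1 ng of RNA, and the samples hold every cell type of the nucleus. Levels are given as counts per 1e6 counts (CPM), after library sizes were adjusted with TMM, the trimmed mean of M-values. They are not corrected for gene length, so they compare samples for one gene and not one gene with another.

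SARM1 is an enzyme that destroys the cofactor NAD and thereby carries out the self-destruction of injured axons, and NMNAT2 holds it in check. In apoptosis cytochrome c released from mitochondria assembles with APAF1 into the apoptosome, which activates caspase 9. BCL2 and BCL2L1 guard the mitochondrial membrane, XIAP binds and blocks active caspases, and PAWR (also called Par-4) is a protein that promotes apoptosis in neurons and tumour cells. These roles are known mainly from mammals. In the zebra finch, RA neurons of females shrink and many die during the juvenile weeks in which the male nucleus grows.

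Sequencing depth formed 2 sets. The 9 deep libraries held 49.12 M to 65 M counts and the 13 shallow ones 16.17 M to 22.35 M. Deep libraries made up 3 of 5 for males and 1 of 7 for females at 50 days, and 0 of 5 for males and 5 of 5 for females at 20 days, so sex and depth set cannot be told apart at 20 days. The share of deep libraries also fell with age in females and rose in males, so age and depth set are partly mixed in both sexes. Every library held at least 126 counts of each of the 6 genes. The brain ids of female 50-day replicates 5 and 6 share a number, so they may come from 1 bird, and beyond the ids nothing states that samples are separate birds. The p-values set group differences against the spread between these samples, and the main fit counts those replicates 5 and 6 as separate samples.

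Marker genes of neurons were read in every group, with 7 of 7 in the table and none at 0 in all libraries of a group. Their summed level was 6580 to 8460 CPM in males and 6730 to 9220 CPM in females at 50 days, and 6380 to 7280 CPM in males and 6770 to 7980 CPM in females at 20 days. Markers of other cell types moved with the groups, as the plot of summed markers shows. In bulk tissue fewer cells of a type and less RNA per cell cannot be told apart.

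**Figure D1:**
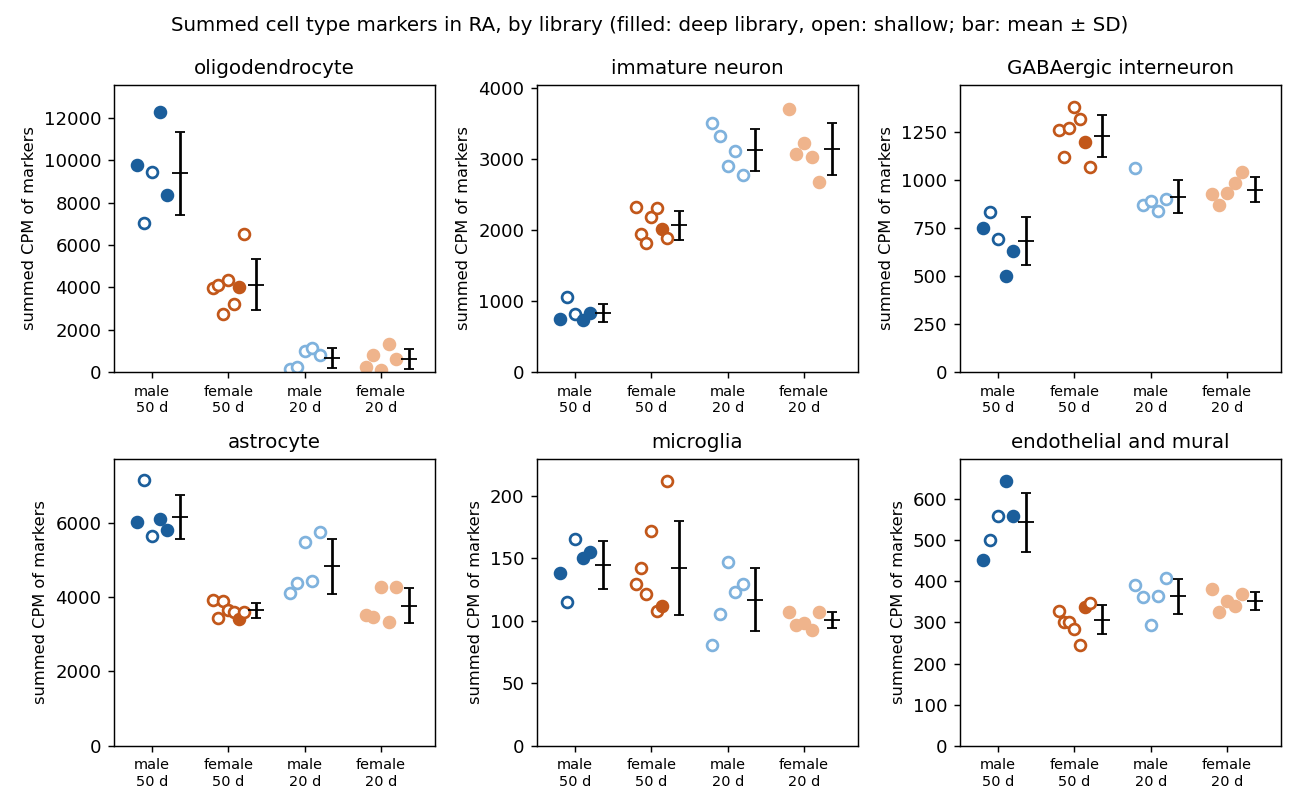
Summed CPM (y axis, linear from 0) of the markers of 6 cell types in each library (points, filled for deep and open for shallow libraries) of the 4 groups (x axis), with the mean and SD as bars. At 50 days male libraries lie above female ones in astrocyte and endothelial markers and below them in immature neuron and GABAergic interneuron markers. Oligodendrocyte markers are high at 50 days in both sexes, at 7030 to 12300 CPM in males and 2720 to 6540 CPM in females.

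With age, SARM1 and APAF1 fell in RA of both sexes, and PAWR fell in females, in groups whose depth sets were uneven by age. SARM1 was 1.53-fold lower in males and 1.97-fold lower in females at 50 than at 20 days, and APAF1 2.08-fold and 1.83-fold lower. None of the 3 genes that hold death back, BCL2, BCL2L1 and XIAP, passed the test with age in either sex. The sexes differed in PAWR at 20 days, and in SARM1, APAF1 and XIAP at 50 days. Each of these sex differences, and the fall of PAWR in females, lost its call in at least 1 fit that left out 1 library.

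**Figure D2:**
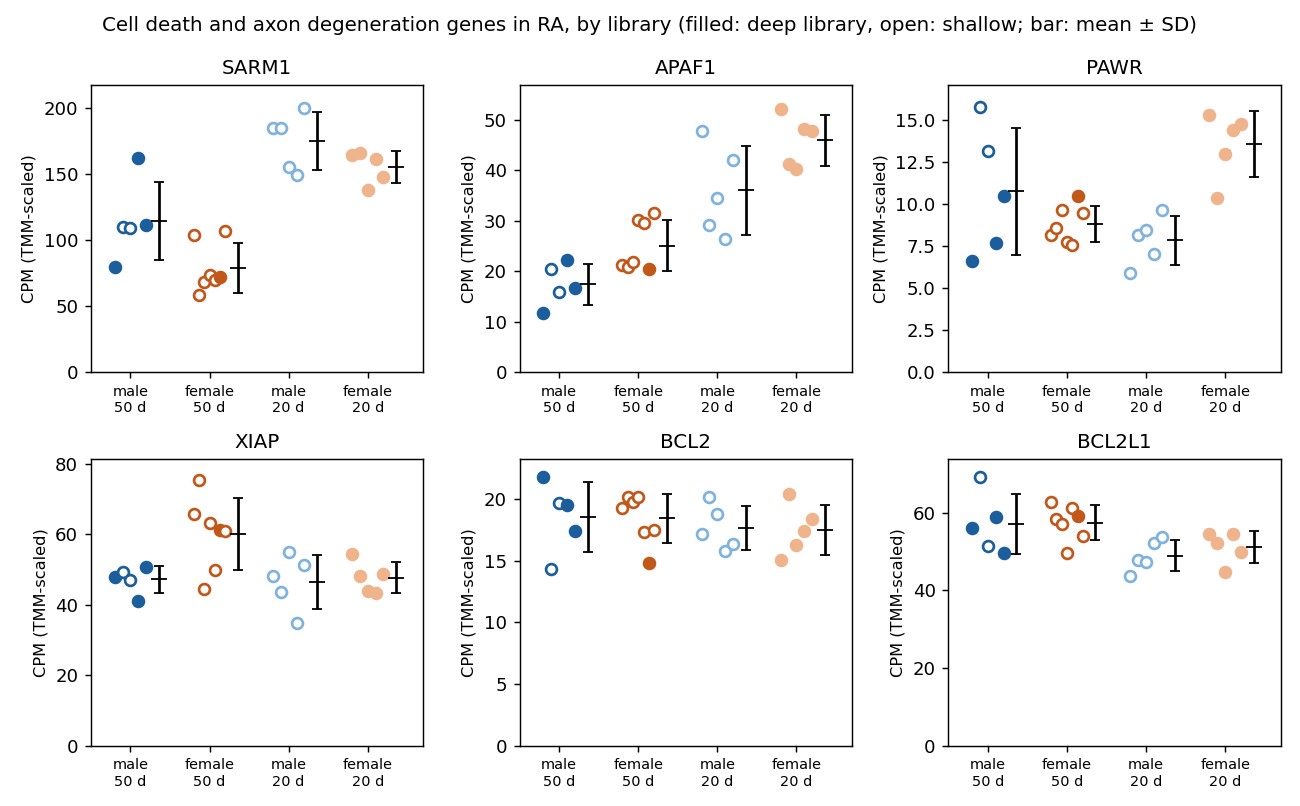
TMM-scaled CPM (y axis, linear from 0) of SARM1, APAF1, PAWR, XIAP, BCL2 and BCL2L1 in each of the 22 libraries (points, filled for deep and open for shallow libraries) of the 4 groups (x axis), with the mean and SD as bars. SARM1 and APAF1 are lower at 50 days, PAWR is highest in females at 20 days with a mean of 13.6 CPM, and BCL2 has group means of 17.5 to 18.5 CPM.

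SARM1, the axon-destroying NAD hydrolase, had 79.8, 110, 109, 162 and 111 CPM in males at 50 days, against 185, 185, 155, 149 and 200 CPM in males at 20 days. Only male 50-day replicate 4, at 162 CPM, reached into the range of the younger males. The log2 fold change was -0.61 (SE 0.16; adjusted p = 0.0073, edgeR quasi-likelihood test with Benjamini-Hochberg adjustment over 16004 genes). In females SARM1 ranged from 58.3 to 107 CPM at 50 days with a median of 71.7 CPM, against 164, 166, 138, 161 and 148 CPM at 20 days. Every older female lay below every younger one. The log2 fold change was -0.98 (SE 0.15; edgeR adjusted p = 0.000137). The male change minus the female change, the sex by age interaction, was 0.36 in log2 with a 95% interval of -0.10 to 0.83 (edgeR adjusted p = 0.317), so a difference between the sexes in the size of the fall was not shown.

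APAF1, the scaffold of the apoptosome, had 11.7, 20.5, 15.8, 22.2 and 16.6 CPM in males at 50 days, against 47.8, 29.2, 34.6, 26.4 and 42.1 CPM in males at 20 days. The ranges did not overlap, and the log2 fold change was -1.05 (SE 0.18; edgeR adjusted p = 0.000155). Females at 50 days held 20.4 to 31.6 CPM with a median of 21.8 CPM, against 52.2, 41.3, 40.3, 48.2 and 47.8 CPM at 20 days. Again no library of the older group reached the younger one, and the log2 fold change was -0.87 (SE 0.17; edgeR adjusted p = 0.00103). The interaction was -0.18 in log2, with a 95% interval of -0.69 to 0.33 (edgeR adjusted p = 0.697).

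The age change of PAWR, the death-promoting protein, differed between the 2 sexes in the main fit. At 20 days all male libraries were shallow and all female ones deep, so sex and depth cannot be told apart there. PAWR had 6.64, 15.8, 13.2, 7.7 and 10.5 CPM in males at 50 days, against 5.9, 8.15, 8.49, 7.01 and 9.68 CPM in males at 20 days. The ranges overlapped and the log2 fold change of 0.45 (SE 0.21, 95% interval 0.03 to 0.88) did not pass the test (edgeR adjusted p = 0.113). At 50 days the 2 shallow male libraries held 13.2 and 15.8 CPM and the 3 deep ones 6.64 to 10.5 CPM, whereas in females the 1 deep library, at 10.5 CPM, lay above the 6 shallow ones at 7.59 to 9.64 CPM. In the 7 females at 50 days it ran from 7.59 to 10.5 CPM with a median of 8.58 CPM, against 15.3, 10.4, 13, 14.4 and 14.8 CPM at 20 days. All 5 younger females but replicate 2, at 10.4 CPM, lay above every older one. The fall was 1.54-fold (log2 fold change -0.62, SE 0.19; edgeR adjusted p = 0.0267), and it missed the threshold without female 20-day replicate 1, 4 or 5, with an adjusted p of up to 0.0686.

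The interaction for PAWR was 1.07 in log2 (SE 0.28, 95% interval 0.50 to 1.65; edgeR adjusted p = 0.0137), with the change of males above that of females. It kept its call in all 22 fits that left out 1 library, with adjusted p from 0.00474 to 0.0295. With depth set as a model term it was 1.48 and missed the threshold (adjusted p = 0.0851). The part of depth in it was not tested further, since every 20-day male library is shallow and every 20-day female library deep. In the same interaction 7 of 8 GABAergic interneuron, 5 of 6 immature neuron and 1 of 4 oligodendrocyte precursor markers were called negative. Of 7 neuron markers 3 were called negative and 1 positive. Positive calls fell on 3 of 8 endothelial and mural, 1 of 6 astrocyte, 1 of 4 fibroblast and 1 of 3 red blood cell markers. The part of these markers in the PAWR value was not tested. Among the 6 genes PAWR alone passed the interaction test, beside 12.3% of all genes tested and 5.75% with a positive interaction.

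BCL2, which keeps mitochondria from releasing cytochrome c, was nearly level over the groups. It averaged 18.5 ± 2.8 CPM in males at 50 days (SD, n = 5) and 17.7 ± 1.78 CPM in males at 20 days (SD, n = 5), with a log2 fold change of 0.07 and a 95% interval of -0.20 to 0.34. In females it averaged 18.4 ± 1.99 CPM at 50 days (SD, n = 7) and 17.5 ± 2.03 CPM at 20 days (SD, n = 5), with a log2 fold change of 0.08 and an interval of -0.17 to 0.32. The adjusted p was 0.747 in males and 0.734 in females with edgeR. These intervals reach no further than 0.34 in log2 in either direction.

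BCL2L1, which encodes the neuronal survival protein BCL-XL, averaged 57 ± 7.68 CPM in males at 50 days (SD, n = 5) and 48.9 ± 4.06 CPM in males at 20 days (SD, n = 5). The log2 fold change of 0.22 (interval 0.02 to 0.42) did not pass the edgeR test (adjusted p = 0.0919). Female means were 57.5 ± 4.4 CPM at 50 days (SD, n = 7) and 51.2 ± 4.04 CPM at 20 days (SD, n = 5), with a log2 fold change of 0.17 (interval -0.02 to 0.35; edgeR adjusted p = 0.219). The gene overlaps TPX2 on the reference annotation, which averaged 4.56 CPM, and the strand setting of the counts is not given in the sources used here.

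XIAP, the caspase inhibitor, had 47.8, 49.4, 47, 41.1 and 50.8 CPM in males at 50 days, against 48.1, 43.6, 54.9, 34.8 and 51.3 CPM in males at 20 days. The older males lay inside the range of the younger ones (log2 fold change 0.02, interval -0.25 to 0.29; edgeR adjusted p = 0.934). In females at 50 days it ran from 44.4 to 75.6 CPM with a median of 61.3 CPM, against 54.5, 48.1, 44, 43.3 and 48.9 CPM at 20 days. The log2 fold change of 0.33 (SE 0.12; edgeR adjusted p = 0.064) did not pass, though it passed without replicate 3 or 5 of the 50-day females or replicate 4 of the 20-day males, with a lowest adjusted p of 0.0217.

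In males 2 of the 6 genes fell and none rose with age, beside 26.7% of all genes called in either direction and 14.2% called lower. In females 3 of 6 fell and none rose, beside 14.9% called in either direction and 8.05% called lower. Ranges did not overlap for APAF1 in males (18.1% of all genes) and for SARM1 and APAF1 in females (7.46%). The median log2 fold change of the 6 was 0.04 in males and -0.27 in females, beside -0.01 and 0.01 over all genes. A single gene is 16.7% of the 6, so the counts say little beyond the values of each gene.

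Over the same ages oligodendrocyte markers (4 of 8 in the table) summed to 7030 to 12300 CPM in males at 50 days and 120 to 1120 CPM in males at 20 days, and to 2720 to 6540 CPM in females at 50 days and 117 to 1330 CPM in females at 20 days. Immature neuron markers (6 of 7 in the table) summed to 733 to 1050 CPM in males at 50 days and 2780 to 3500 CPM in males at 20 days, and to 1820 to 2320 CPM in females at 50 days and 2680 to 3700 CPM in females at 20 days. Of 8 GABAergic interneuron markers 5 were called lower with age in males and 5 higher in females, and of 6 astrocyte markers 3 were called higher in males, and 1 higher and 1 lower in females. None of these markers was at 0 in every library of a group, and their part in the falls of SARM1, APAF1 and PAWR was not tested. Among the shallow libraries alone, with 2 males at 50 and 5 at 20 days, APAF1 kept its fall (log2 fold change -0.97, edgeR adjusted p = 0.0284) and SARM1 missed the threshold (-0.66, adjusted p = 0.0726). In the same libraries PAWR was higher at 50 days (0.91, adjusted p = 0.0202). Among the deep libraries, with 1 female at 50 and 5 at 20 days, the log2 fold changes were -1.12 for SARM1, -1.18 for APAF1 and -0.38 for PAWR, and none passed (edgeR adjusted p = 0.211, 0.2 and 0.68). There and in the deep libraries at 50 days the lone female is assumed to vary like the other group.

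**Figure D3:**
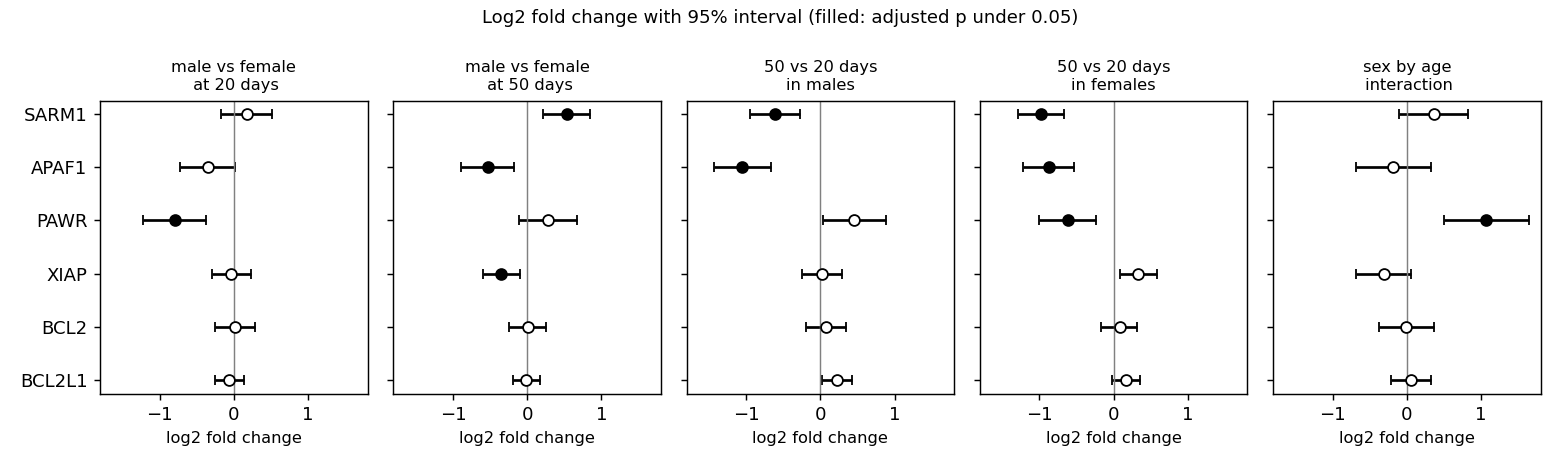
Log2 fold change (x axis) with its 95% interval for the 6 genes (rows) in the 4 comparisons and the sex by age interaction (panels), with filled points where the edgeR adjusted p is under 0.05. SARM1 and APAF1 lie below 0 with age in both sexes, and for PAWR the interval of the interaction runs from 0.50 to 1.65.

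Between the sexes at 20 days PAWR was the one gene of the 6 that differed, beside 2.11% of all genes called. It was 1.73-fold lower in males (log2 fold change -0.79, SE 0.21; edgeR adjusted p = 0.0408), with means of 7.85 ± 1.44 CPM in males and 13.6 ± 1.97 CPM in females (SD, n = 5 each). The highest male, at 9.68 CPM, lay below the lowest female, at 10.4 CPM, which holds in either direction for 3.61% of all genes. At this age 0.181% of all genes were called lower in males. The call did not hold in 9 of 22 fits without 1 library, namely those lacking replicate 1, 2, 3 or 4 of the 20-day males, replicate 1, 3, 4 or 5 of the 20-day females, or replicate 5 of the 50-day males, with adjusted p from 0.02 to 0.123 over the 22 fits. With a term for depth set the difference was -1.11 (edgeR adjusted p = 0.0708). That term is estimated from the 50-day libraries alone and cannot separate depth from sex at 20 days.

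The other 5 genes did not pass at 20 days. SARM1 averaged 175 ± 21.9 CPM in males and 155 ± 12 CPM in females, and the log2 fold change was 0.17 with an interval of -0.17 to 0.51. APAF1 averaged 36 ± 8.9 CPM in males and 46 ± 5.02 CPM in females, with -0.35 and an interval of -0.73 to 0.02. For BCL2, BCL2L1 and XIAP the log2 fold changes were 0.01, -0.07 and -0.04, with intervals of -0.25 to 0.28 for BCL2, -0.26 to 0.13 for BCL2L1 and -0.30 to 0.23 for XIAP. Marker sums of the immature neurons were 2780 to 3500 CPM in males and 2680 to 3700 CPM in females at this age, and no marker of neurons, astrocytes, oligodendrocytes or endothelial cells was called between the sexes, while 1 of 7 microglia markers was higher in males.

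At 50 days SARM1 was 1.45-fold higher in males than in females, while APAF1 was 1.45-fold and XIAP 1.27-fold lower. These are 3 of 6 genes, 1 higher and 2 lower, beside 33.1% of all genes called, 16% higher and 17.2% lower. For none of the 6 were the ranges of the sexes apart, which they were for 16.1% of all genes.

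SARM1 averaged 114 ± 29.8 CPM in males (SD, n = 5) and 78.8 ± 18.8 CPM in females (SD, n = 7) at this age. The male libraries held 79.8 to 162 CPM and the females 58.3 to 107 CPM, so that the male replicate 1 lay among the females and female replicates 1 and 7, at 104 and 107 CPM, among the males. The log2 fold change was 0.54 (SE 0.15, interval 0.22 to 0.85; edgeR adjusted p = 0.00833). The call was lost without male replicate 4 (adjusted p = 0.0536). It was 0.46 among the 2 male and 6 female shallow libraries (adjusted p = 0.155) and 0.71 among the 3 male and 1 female deep ones (adjusted p = 0.228), and 0.54 with depth set as a term (adjusted p = 0.0315).

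APAF1 averaged 17.4 ± 4.1 CPM in males (SD, n = 5) and 25.1 ± 5.04 CPM in females (SD, n = 7), with a log2 fold change of -0.53 (SE 0.17, interval -0.89 to -0.18; edgeR adjusted p = 0.0193). Male replicates 2 and 4, at 20.5 and 22.2 CPM, lay inside the female range of 20.4 to 31.6 CPM, and the other 3 males below it. The call was lost without male replicate 1 (adjusted p = 0.068). Within depth sets the value was -0.50 in shallow and -0.27 in deep libraries (adjusted p = 0.221 and 0.655), and with the depth term -0.43 (adjusted p = 0.117).

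XIAP averaged 47.2 ± 3.71 CPM in males (SD, n = 5) and 60.2 ± 10.2 CPM in females (SD, n = 7), with a log2 fold change of -0.35 (SE 0.12, interval -0.60 to -0.10; edgeR adjusted p = 0.0282). Of the 7 females, replicates 3 and 5, at 44.4 and 50 CPM, lay within the male range, which ended at 50.8 CPM. Without male replicate 3, male replicate 4 or female replicate 2 the call was lost, with an adjusted p of up to 0.0849. The value was -0.30 in shallow and -0.40 in deep libraries (adjusted p = 0.368 and 0.242), and -0.34 with the depth term (adjusted p = 0.0773).

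PAWR, BCL2 and BCL2L1 were not called between the sexes at 50 days. PAWR averaged 10.8 ± 3.8 CPM in males (SD, n = 5) and 8.81 ± 1.09 CPM in females (SD, n = 7), with a log2 fold change of 0.28 and an interval of -0.11 to 0.67 (edgeR adjusted p = 0.268). It was 0.78 among the 2 male and 6 female shallow libraries (adjusted p = 0.0319) and -0.35 among the deep ones (adjusted p = 0.594), where the value rests on 1 female library. For BCL2 the log2 fold change was 0.01 with an interval of -0.24 to 0.26, and for BCL2L1 it was -0.01 with an interval of -0.19 to 0.17. The male 50-day libraries enter both this comparison and that of males by age, so the values of the comparisons are not independent.

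Several cell type markers differed between the sexes at 50 days alongside SARM1, APAF1 and XIAP. Astrocyte markers (6 of 8 in the table) summed to 5640 to 7160 CPM in males and 3410 to 3910 CPM in females, and endothelial and mural markers (8 of 9) to 453 to 645 CPM in males and 245 to 348 CPM in females. Immature neuron markers summed to 733 to 1050 CPM in males and 1820 to 2320 CPM in females, and GABAergic interneuron markers (8 of 8) to 501 to 833 CPM in males and 1070 to 1380 CPM in females. Oligodendrocyte markers summed to 7030 to 12300 CPM in males and 2720 to 6540 CPM in females, with 0 of 4 called. Of 7 neuron markers 1 was called higher and 4 lower in males. No defining marker of these types was at 0 in every library of a group. Their part in the sex differences of SARM1, APAF1 and XIAP was not tested.

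By order of mean level, SARM1 ran from males at 20 days over females at 20 days and males at 50 days to females at 50 days. APAF1 was highest in females at 20 days, followed by males at 20 days, females at 50 days and males at 50 days. For PAWR the order was females at 20 days, males at 50 days, females at 50 days and males at 20 days. XIAP was highest in females at 50 days, followed by females at 20 days, males at 50 days and males at 20 days. BCL2 and BCL2L1 were higher at 50 than at 20 days by mean in both sexes. For all 6 genes each pair of neighbours in the order overlapped in range.

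The genes whose level followed SARM1 most closely over the 22 libraries, by the root mean square difference of centred log2(CPM + 1) among 9741 genes with a symbol and at least 5 CPM, were CYRIA at 0.228 and DTD1 at 0.253. SARM1 itself had a root mean square deviation of 0.533 about its mean. CYRIA averaged 838 ± 61.5 CPM in males and 654 ± 68.3 CPM in females at 50 days, and 1400 ± 146 CPM in males and 1310 ± 158 CPM in females at 20 days. SEC23IP (0.246) and SRGAP1 (0.262) were closest to APAF1, whose own deviation was 0.562. For PAWR they were CMAS (0.272) and STARD5 (0.281) beside an own deviation of 0.368. For XIAP, with 0.242 of its own, they were SRSF3 (0.161) and MTIF2 (0.167).

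Around these 6 genes, 141 further genes of cell death, axon degeneration and NAD metabolism were listed. Of these 116 were in the table and 113 were tested. The lists too were chosen with earlier results of these data known. Of the 113, 36 were called with age in males (31.9%, with 20 higher and 16 lower) and 26 in females (23%, with 9 higher and 17 lower), beside 26.7% and 14.9% of all genes. With depth set as a term 25 of these 36 and 9 of these 26 were called, and all kept their sign. At 50 days 34 differed between the sexes (30.1%, with 21 higher and 13 lower in males), beside 33.1% of all genes. At 20 days there were 3 (2.65%), all higher in males, beside 2.11%.

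BID, which carries the death receptor signal to mitochondria, fell with age in both sexes. It averaged 5.91 ± 1.01 CPM in males at 50 days and 16.3 ± 4.57 CPM in males at 20 days, and 7.69 ± 1.63 CPM in females at 50 days and 13 ± 2.49 CPM in females at 20 days. Its fall was 2.74-fold in males (edgeR adjusted p = 1.79e-05) and 1.69-fold in females (adjusted p = 0.00846, and 0.282 with the depth term). BID does not stand for its list of 9 tested pro-apoptotic BCL2 genes. In males 3 of the 9 were called higher with age and 1 lower (44.4%, beside 26.7% of all genes). Those higher were BMF (1.93-fold), BOK (1.54-fold) and BNIP3 (1.47-fold). In females 1 was called higher, BCLAF1 (1.3-fold), and 2 lower (33.3%, beside 14.9% of all genes).

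Further genes of the families of BCL2 and XIAP changed with age in males. BCL2L10 rose 1.68-fold and BIRC2 1.42-fold, and BIRC6 fell 1.34-fold (edgeR adjusted p = 2.17e-06, 0.000596 and 0.0339). BCL2A1 rose too (adjusted p = 0.0268), from a mean of 0.107 to 1.06 CPM. In females 0 of 2 and 0 of 4 such genes were called. CDKN1A, the cell cycle inhibitor induced by p53, fell 4.73-fold in males and 3.6-fold in females (edgeR adjusted p = 0.000101 and 0.000619). SQSTM1, the autophagy receptor p62 that binds the same kinases as PAWR in mammals, rose 1.62-fold and 1.64-fold (adjusted p = 8.52e-06 and 1.29e-05). Caspase 9, which APAF1 activates, and DIABLO, which lifts the block of XIAP, were not called in any comparison, and both were picked for mention after their values were seen. CASP9 averaged 9.38 ± 1.49 CPM in males and 10.3 ± 1.46 CPM in females at 50 days, and 7.87 ± 2.17 CPM in males and 11.1 ± 3.06 CPM in females at 20 days. DIABLO averaged 19.6 ± 2.86 CPM in males and 21.9 ± 3.1 CPM in females at 50 days, and 18.6 ± 2.89 CPM in males and 20.4 ± 2.12 CPM in females at 20 days.

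The listed genes called between the sexes at 50 days, whose share was below that of all genes, included receptors, inhibitors and mitochondrial proteins. FAS, a death receptor, had 9.68, 19.8, 23.1, 23.6 and 25.4 CPM in males, against 2.34 to 7.5 CPM in females, and was 3.47-fold higher (log2 fold change 1.79, SE 0.25; edgeR adjusted p = 6.66e-06). CFLAR, which blocks caspase 8 at such receptors, was 1.43-fold higher in males (adjusted p = 0.00275). BIRC2, a relative of XIAP, averaged 219 ± 24.6 CPM in males and 138 ± 19.5 CPM in females and was 1.59-fold higher (adjusted p = 7.08e-06). Thus BIRC2 was higher and XIAP lower in males. BCL2L10, of the anti-apoptotic BCL2 family, averaged 221 ± 23.4 CPM in males and 146 ± 14 CPM in females (1.51-fold higher, adjusted p = 7.73e-06).

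CYCS, the cytochrome c that binds APAF1, was 1.38-fold higher in males at 50 days (edgeR adjusted p = 0.00165). BCLAF1, a nuclear factor first known for binding BCL2 proteins, was 1.48-fold lower in males (adjusted p = 1.66e-06), and CASP2, a caspase, 1.4-fold lower (adjusted p = 0.00717). Of the 9 tested caspases and regulators besides the 6 genes, 2 were higher and 1 lower in males (33.3%). Of 9 pro-apoptotic BCL2 genes 1 was higher and 1 lower (22.2%), and of 14 genes of the mitochondrial pathway 2 were higher (14.3%), beside 33.1% of all genes.

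Genes that act with SARM1 in axons and in NAD metabolism were called in 12 of 27 cases at 50 days (44.4%, beside 33.1% of all genes), 6 higher and 6 lower in males. MYCBP2, the ubiquitin ligase that removes NMNAT2 and so permits axon degeneration, had 110 to 127 CPM in males, against 181 to 261 CPM in females. It was 1.71-fold lower in males (log2 fold change -0.78, SE 0.09; edgeR adjusted p = 3.64e-07). MAP3K13, a kinase of the axon injury signal, was 1.73-fold lower (adjusted p = 0.000654), and STMN2, a microtubule regulator of growing axons, 1.77-fold lower (adjusted p = 1.66e-05). CD38, another enzyme that consumes NAD, averaged 59.4 ± 12.8 CPM in males and 22.7 ± 8.42 CPM in females and was 2.62-fold higher (adjusted p = 0.000261). NMNAT2, the survival factor, picked after its values were seen, averaged 194 ± 17.3 CPM in males and 224 ± 35.1 CPM in females and was not called (adjusted p = 0.257). In the same comparison 6 of 6 immature neuron markers were called lower in males and 4 of 6 astrocyte markers higher. The part of these markers in the values of MYCBP2, MAP3K13, STMN2 and CD38 was not tested.

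Of the 113 genes 6 are Z-linked, on the chromosome that males carry in 2 copies and females in 1. All 3 listed genes called at 20 days were among these 6, namely DAPK1, a death-associated kinase, NMRK1, which makes the SARM1 activator nicotinamide mononucleotide, and NADK2, the mitochondrial NAD kinase. They were 1.49-fold, 2.11-fold and 1.46-fold higher in males (edgeR adjusted p = 0.0121, 0.0192 and 0.02). With the depth term none of the 3 was called. Log2 fold changes were then 0.45 for DAPK1, 1.16 for NMRK1 and 0.43 for NADK2, against 0.57, 1.08 and 0.55 without it. The term is estimated from the 50-day libraries alone, so these values do not decide the part of depth at 20 days. NMRK1 was not called without replicate 3 of either sex at 20 days. NADK2 was called in 17 of 22 fits without 1 library. All 6 Z-linked genes were higher in males by fold change at 20 days, from 0.14 to 1.08 in log2, and none of the other 107 genes was called at that age. How many of all 658 Z-linked genes tested were called is not given here. These values therefore do not set the 6 apart from other Z-linked genes. At 50 days NMRK1 was 2.47-fold and NADK2 1.74-fold higher in males (adjusted p = 0.000133 and 1.91e-05). DAPK1 was not called at 50 days (log2 fold change 0.3, edgeR adjusted p = 0.0575), and its ranges overlapped.

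Genes of the execution of cell death and of the clearance of dying cells, taken as 1 list, were called in 7 of 18 cases at 50 days (38.9%, beside 33.1% of all genes). Of these 5 were higher and 2 lower in males. MERTK, an uptake receptor of astrocytes and microglia, averaged 209 ± 88.2 CPM in males (SD, n = 5) and 48.1 ± 13.6 CPM in females (SD, n = 7), and was 4.35-fold higher (edgeR adjusted p = 2.21e-07). GULP1, an adaptor of engulfment, averaged 351 ± 26.8 CPM in males and 146 ± 18.5 CPM in females, and was 2.4-fold higher (adjusted p = 3.5e-08). MEGF10, an engulfment receptor of astrocytes and Z-linked, was 1.6-fold higher (adjusted p = 0.000204). XKR4, a scramblase that is switched on by caspase cleavage, averaged 31.7 ± 7.01 CPM in males and 68.1 ± 14.7 CPM in females. It was 2.15-fold lower in males (edgeR adjusted p = 7.47e-06). Its relative XKR6, picked after its values were seen, went the other way and was higher in males (log2 fold change 1.07, edgeR adjusted p = 0.00466). GAS6, of the same list, averaged 20.9 CPM in males and 36.6 CPM in females, and was 1.76-fold lower (edgeR adjusted p = 0.00035). Astrocyte markers summed to 5640 to 7160 CPM in males and 3410 to 3910 CPM in females in the same libraries, and their part in these values was not tested. Microglia markers (7 of 10 in the table) summed to 115 to 165 CPM in males and 108 to 212 CPM in females.

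**Figure D4:**
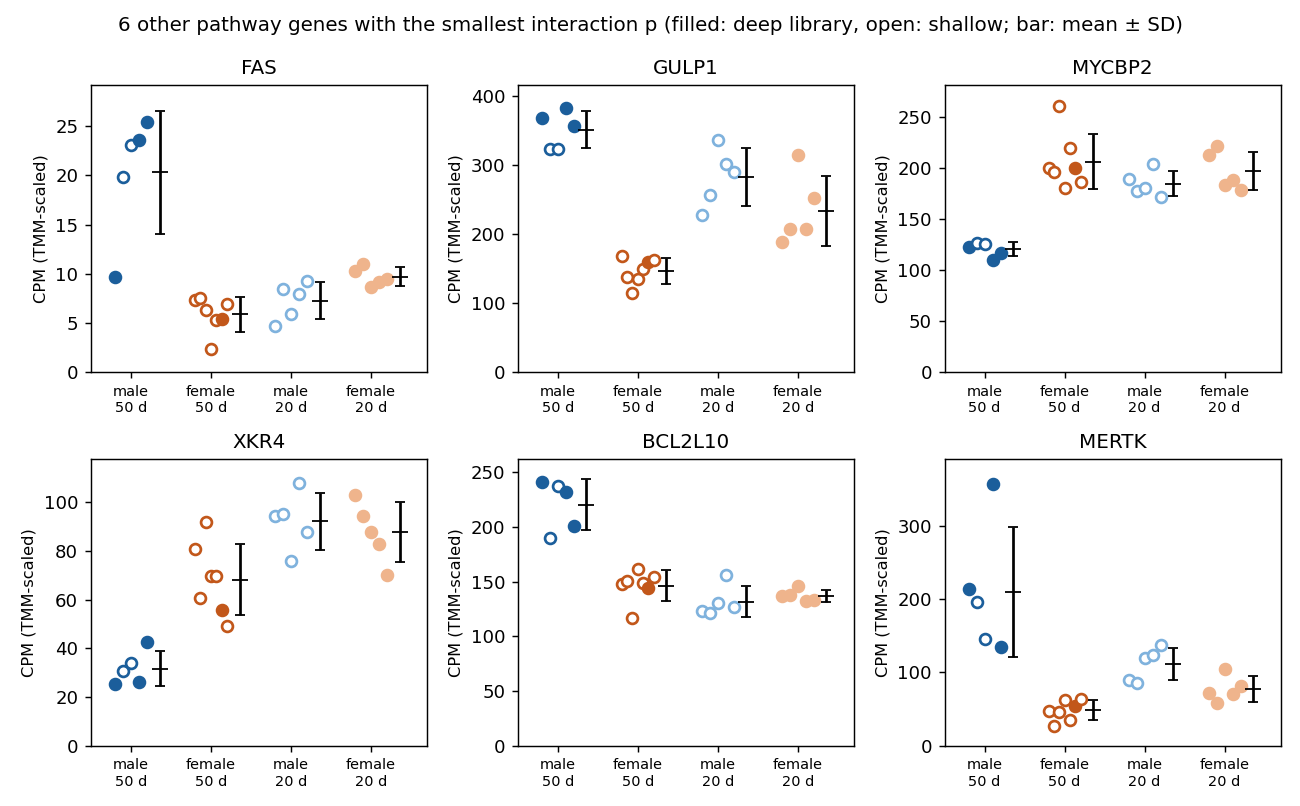
TMM-scaled CPM (y axis, linear from 0) of the 6 further pathway genes with the smallest p for the sex by age interaction, in each library (points, filled for deep and open for shallow libraries) of the 4 groups (x axis), with the mean and SD as bars. FAS, GULP1, BCL2L10 and MERTK have their highest group mean in males at 50 days, and MYCBP2 and XKR4 their lowest.

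The age change differed between the sexes for 13 of the 113 genes (11.5%, beside 12.3% of all genes). FAS rose 2.81-fold in males (edgeR adjusted p = 0.000252), with 20.3 ± 6.28 CPM at 50 days and 7.25 ± 1.89 CPM at 20 days, and fell 1.66-fold in females (adjusted p = 0.048), with 5.86 ± 1.79 CPM at 50 days and 9.7 ± 0.908 CPM at 20 days. The fall of FAS in females was called in 5 of 22 fits without 1 library, and not with the depth term (edgeR adjusted p = 0.194). Its interaction was 2.22 in log2 (adjusted p = 0.000438), and 2.42 with the depth term (adjusted p = 0.0582). MYCBP2 fell 1.54-fold in males (adjusted p = 2.27e-05), with 121 ± 6.92 CPM at 50 days and 185 ± 12.3 CPM at 20 days, against 207 ± 27.1 CPM at 50 days and 197 ± 19 CPM at 20 days in females (interaction -0.68, adjusted p = 0.000984). Of the 13 interactions 9 were positive and 4 negative. In the pro-apoptotic BCL2 list BOK had a positive one (1.12, edgeR adjusted p = 0.00738) and BCLAF1 a negative one (-0.42, adjusted p = 0.00969). BOK averaged 32.8 ± 4.24 CPM in males at 50 days and 21.3 ± 4.02 CPM in males at 20 days, and 23.9 ± 7.3 CPM in females at 50 days and 33.6 ± 5.8 CPM in females at 20 days. With age it was called in males (adjusted p = 0.0189) and not in females (adjusted p = 0.0637). With depth set as a term 0 of the 13 interactions were called, and all 13 kept their sign. The term is estimated from the 50-day libraries alone, so this does not decide the part of depth in the interactions. The GABAergic interneuron, immature neuron, neuron and endothelial markers named beside the PAWR interaction moved here too, and their part in these 13 values was not tested.

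**Figure D5:**
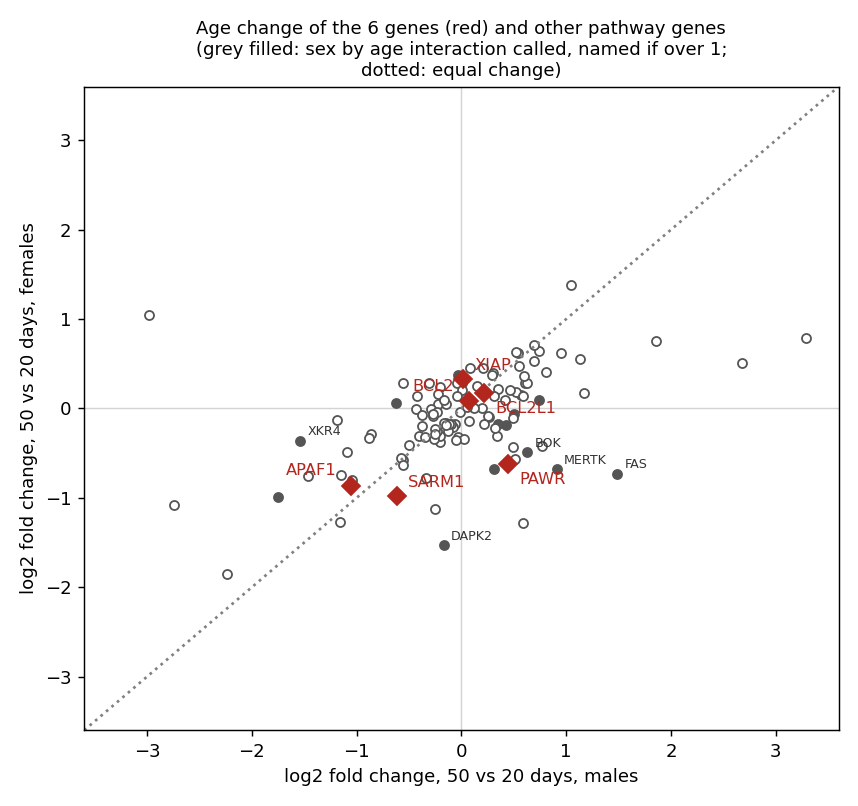
Log2 fold change of 50 over 20 days in males (x axis) and females (y axis) for the 6 genes (red diamonds) and the other pathway genes (circles, filled where the sex by age interaction was called), with a dotted line of equal change. PAWR lies off the line with 0.45 in males and -0.62 in females, and SARM1 and APAF1 lie below 0 on both axes.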

How the data were processed

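RNA was measured in laser-captured RA in 22 samples, grouped by the sex and age in the labels. The authors deposited whole-number read counts for each gene, with no normalisation. Per the submitters' processing notes, reads passed through Trimmomatic 0.36, FastQC 0.11.9 and STAR 2.6.1. How reads were counted, on which build and annotation and with which strand option, is not given in the sources used here. Of 21955 entries 169 had no gene ID and were left out, and these held under 0.1% of the counts of a library. Symbols and the Z chromosome were read by gene ID from RefSeq's gene table for bTaeGut7.mat, in which 16205 IDs were found. Its positions were used only to find genes that overlap the 6, and no sequences were used.

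The counts were filtered with filterByExpr, scaled by TMM and fitted with edgeR 4.0.16 (quasi-likelihood F test, R 4.3.3) in 1 model of the 4 groups. Calls were made where p, adjusted by Benjamini-Hochberg over 16004 genes, was under 0.05. Fold changes are male over female and 50 over 20 days. Intervals are 95% intervals from the standard error (SE) and the degrees of freedom of the fit. Counts are not independent molecules, since PCR copies were not removed. The steps were tested on simulated counts.

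The 6 genes and the gene lists were chosen with earlier results of these data known. From each list up to 3 called genes per direction with the smallest p could be named, and for each called gene of the 6 the 2 genes of most similar pattern. Not every gene named by this rule is reported here. Alternatives were another scaling (RLE), DESeq2 1.42.0, limma voom 3.58.1 with quality weights, other filters, a replicate block, fits without 1 library or of only the groups compared, summing female 50-day replicates 5 and 6, and depth set as a term or as a subset. The count of further pathway genes under each alternative was added after seeing the data.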

Additional observations from a re-analysis of the deposited data

Results flagged for a closer look

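PAWR was picked out because its age change differed between the sexes by a test of the difference itself. The male change minus the female change was 1.07 in log2 (edgeR quasi-likelihood test, adjusted p = 0.0137). In males 50-day libraries averaged 10.8 CPM and 20-day libraries 7.85 CPM, and in females 8.81 CPM and 13.6 CPM. With depth set as a term the value was 1.48 (edgeR adjusted p = 0.0851). That term is estimated from the 50-day libraries alone, and the part of depth was not tested further. For the 6 genes, 24 checks of the highest and lowest value in a group flagged no library. In groups of 5 to 7 libraries such checks flag only wide gaps. Male 50-day replicate 4, at 162 CPM for SARM1, was not flagged. Without it the SARM1 sex difference at 50 days lost its call (edgeR adjusted p = 0.0536).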

How the results depend on the processing

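The falls of SARM1 and APAF1 with age kept their direction under every alternative run, and their calls in all 22 fits without 1 library. The 9 other alternatives outside the depth subsets kept these calls as well, while SARM1 in males missed the threshold in the shallow libraries and both missed it in the 1 older and 5 younger deep females (adjusted p = 0.211 for SARM1 and 0.2 for APAF1). Among the 6 genes, the count called at 20 days was 0 without a filter, with the replicate block and with the depth term. At 50 days it was 1 with the block, 1 with the depth term and 1 in shallow libraries. The gene called in the shallow libraries was PAWR, and SARM1, APAF1 and XIAP missed the threshold there. For the interaction the count was 0 with the depth term. In every comparison, those by age included, the depth effect is estimated from the 50-day libraries alone. The depth-term fit among these alternatives therefore does not decide the part of depth in the falls with age. Without 1 library the counts ranged from 0 to 1 at 20 days and from 1 to 3 at 50 days. The subsets hold fewer samples, and otherwise the cause was not tested.

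Of all genes, the depth term gave 187 calls at 20 days, 2712 in males and 744 in females by age, and 72 for the interaction. Shallow libraries gave 1956 at 50 days and 1546 in males, and deep ones 999 at 50 days and 21 in females. Of the further pathway genes, DESeq2 called 6, voom 7 and the depth term 0 at 20 days, with 2 to 5 without 1 library. Shallow libraries gave 16 at 50 days and 16 in males, deep ones 9 at 50 days and 0 in females, and the depth term 9 in females and 0 for the interaction.

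Some values turned sign, most of them near 0. BCL2 at 20 days was -0.01 with the depth term. At 50 days it was -0.06 with the block, -0.01 with replicates 5 and 6 summed and -0.15 in shallow libraries, and with age -0.03 in shallow males and -0.25 in deep females. Its interaction was 0.01 with RLE, 0.02 with DESeq2, 0.05 with voom, 0.03 without a filter, 0 with the stricter filter and 0.03 with the depth term. BCL2L1 at 50 days was 0 with RLE, DESeq2, the stricter filter and replicates summed, 0.01 without a filter, with only the groups compared and with the depth term, and 0.09 in shallow libraries. PAWR at 50 days was not near 0, at 0.28 in the main fit and -0.35 in deep libraries, which hold 1 female. The APAF1 interaction was 0.12 with the depth term. Without 1 library BCL2 ran from -0.04 to 0.07 at 20 days, from -0.06 to 0.09 at 50 days and from -0.07 to 0.07 for the interaction. BCL2L1 ran from -0.09 to 0.04 at 50 days and from -0.02 to 0.10 for the interaction, and XIAP from -0.10 to 0.05 at 20 days and from -0.07 to 0.09 in males.

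Same-numbered replicates did not vary together, with correlations of deviations from -0.08 to 0.069 and 0 of 5 over 0.1 in each comparison, and at most 1 of 5 libraries correlated best with its own number. With the replicate block PAWR at 20 days had an adjusted p of 0.0609, APAF1 at 50 days 0.0537 and XIAP at 50 days 0.0697. Fits of the shallow or deep libraries alone could not be made for the sex difference at 20 days or the interaction, nor deep males or shallow females by age. PAWR had the fewest counts of the 6 genes, 126 to 970 per library.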
